A study of Mus musculus with 4 samples.

Results

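The genes that encode the proteins of the cytoplasmic ribosome were followed across the cell classes and libraries of a mouse vagal ganglion atlas. Members were chosen by symbol: every gene named Rpl or Rps with a digit, together with Rpsa, Rplp0, Rplp1 and Rplp2, without the Rps6k kinases and without symbols that carry "-ps". The rule took 86 of 17289 genes. It also took Rps19bp1, which encodes a protein that binds Rps19 and is no ribosomal subunit, and Rpl7l1, a relative of Rpl7. Further relatives or near copies among the members were Rpl22l1, Rps27l, Rpl36al, Rpl3l, Rpl39l, Rpl6l and Rps27rt.

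Single cells came from the jugular and nodose ganglia of mice 5 weeks old, dissociated with papain followed by collagenase with dispase, and were read at the 3′ end of each transcript. Unsorted libraries 1 and 2 held cells of wild-type C57BL6 mice. Sorted libraries 1 and 2 held cells of Vglut2Cre-Tomato mice, in which Cre expressed from the Slc17a6 (Vglut2) locus turns on tdTomato at the Rosa26 locus, so that the sort kept cells with a history of Slc17a6 expression. The tables held 1825 cells in 27 clusters, of which 18 are nodose and 6 jugular neuron types, with satellite glia, endothelial cells and sympathetic neurons besides. The number of animals behind a library is not in the labels. The p-values therefore measure only how far these libraries spread, and that spread may be technical. Levels are mean unique molecular identifiers (UMIs) per 10000 UMIs of a cell. Each transcript gives a single tag, so levels were not divided by length.

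A ribosome joins a large subunit, built on proteins named Rpl, and a small subunit, built on proteins named Rps, on a scaffold of ribosomal RNA. Each protein is needed in about equal number, and the genes lie scattered over the genome. Their messages typically begin with a C followed by a run of pyrimidines, the 5′ terminal oligopyrimidine tract, through which the growth-sensing kinase mTOR and the binding protein Larp1 control their translation. A few proteins have paralogs that can take their place, such as Rpl22l1 for Rpl22.

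The start sequences are shown because that tract is the feature the members are known to share. In RefSeq start regions of GRCm38.p6, 65 of the 86 members were matched by symbol. A C at the annotated start followed by 4 pyrimidines, searched on the transcribed strand alone, stood at the start of 14 of them (21.5%), against 3.01% of the 27025 genes of that table. Within 10 bases of the start it was found in 39 members (60%) and in 34.4% of all genes. The windows below run from 10 bases before the start through its first 20 bases, with the tract in capitals. They were picked from the 39 members with a match, so they do not stand for the members without one. Of the matched members named below, Rplp0, Rpl37, Rps28, Rpl41, Rpsa, Rpl4, Rpl5, Rpl10, Rpl36al, Rpl7l1 and Rps19bp1 had no tract within 10 bases. The tract of Rps7 began 7 bases after the start.
Rpl28, chr7:4792955-4792984, plus strand: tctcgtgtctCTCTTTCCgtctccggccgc
Rps27, chr3:90213629-90213658, minus strand: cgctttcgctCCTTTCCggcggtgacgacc
Rpl38, chr11:114668570-114668599, plus strand: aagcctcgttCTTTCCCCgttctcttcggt
Rps6, chr4:86857348-86857377, minus strand: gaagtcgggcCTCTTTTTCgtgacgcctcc
Rpl39, chrX:37085203-37085232, minus strand: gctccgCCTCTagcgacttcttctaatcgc
Rpl22l1, chr3:28805498-28805527, plus strand: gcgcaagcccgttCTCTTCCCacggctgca
In Rpl28, Rps27, Rpl38 and Rps6 the tract began at the annotated start. In Rpl39 it began 4 bases before the start and in Rpl22l1 3 bases after it. A match describes these letters only and is not a measured start.

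The members together held a larger share of the UMIs in endothelial cells than in any other class. The mean share was 17.6% of UMIs in unsorted library 1 (17 cells) and 17.1% in unsorted library 2 (34 cells). Satellite glia, the cells that wrap sensory cell bodies, were at 8.73% and 7.72% in the same libraries (20 and 27 cells). Endothelial cells thus had 2.02 and 2.21 times the share of satellite glia, with classes of like depth (medians of 12026 and 7701 UMIs in endothelial cells, 10797 and 7613 in satellite glia).

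Nodose neurons were at 9.64% and 9.02% in unsorted libraries 1 and 2 and at 5.34% and 5.70% in sorted libraries 1 and 2. Jugular neurons, in the same order, were at 11.5%, 10.8%, 6.11% and 6.57%. In each of the 4 libraries jugular neurons lay above nodose neurons, by a factor of 1.20, 1.20, 1.14 and 1.15, and in both classes the sorted libraries lay below the unsorted ones. The few sympathetic neurons were at 9.21% (11 cells) and 10.2% (8 cells), below nodose neurons in unsorted library 1 and between nodose and jugular neurons in unsorted library 2.

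**Figure D1:**
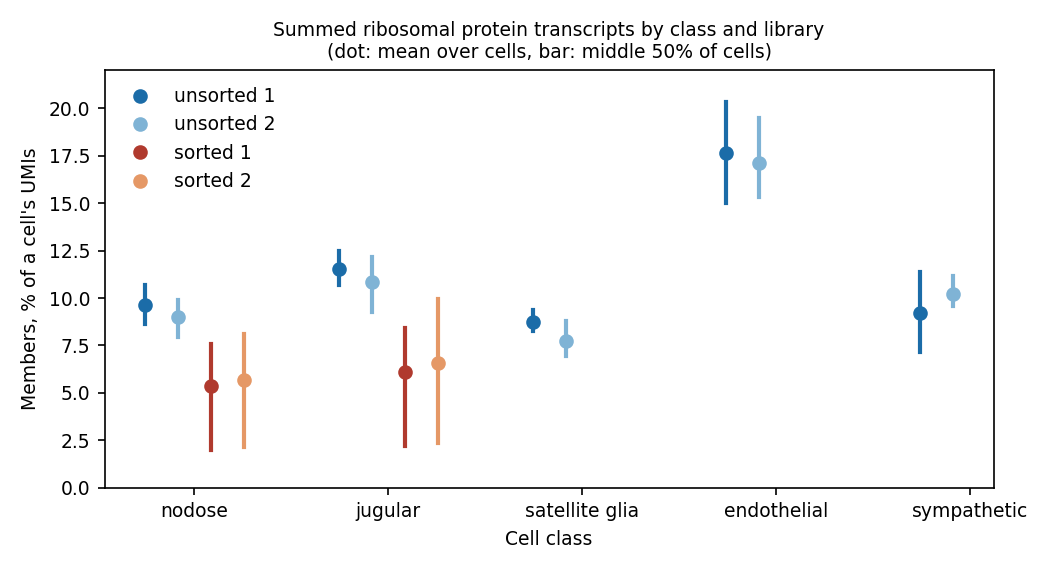
Share of each cell's UMIs (%) that came from the 86 ribosomal protein genes, by cell class and library. Dots are means over cells and bars span the middle 50% of cells, for classes with at least 5 cells in a library. Endothelial cells sit near 17%, and the sorted nodose and jugular neurons have lower means and longer bars than the unsorted ones.

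The labels were checked against marker genes. All 4 nodose markers and all 4 jugular markers were detected in their own class in every library, and their summed levels were 15.8 to 17.5 in nodose neurons and 35.9 to 85.2 in jugular neurons. The nodose markers were not confined to their class. They summed to 7.88 and 7.23 in satellite glia of unsorted libraries 1 and 2, where the 5 general neuron markers summed to 6.53 and 4.10. The 8 endothelial markers summed to 120 and 107 in endothelial cells against 0.276 and 0.294 in satellite glia. The 9 satellite glial markers summed to 1190 and 968 in satellite glia and to 57.2 and 62.5 in endothelial cells, most of the latter from Sparc, which endothelial cells also express. Endothelial cells also held the 4 mural markers, at a summed 10.03 and 9.43, and satellite glia the 4 myelinating Schwann cell markers, at 23.0 and 18.8, and the part of such cells in the values was not tested. Sorted library 1 held 4 satellite glia and sorted library 2 none, so that class was compared in unsorted libraries alone. A single cell barcode occurred in 2 libraries.

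The first contrast set the non-neuronal classes side by side, within unsorted libraries 1 and 2. Of the 84 members that passed the filter on low levels, 78 were lower in satellite glia than in endothelial cells at an adjusted p under 0.05 (limma, Benjamini-Hochberg over all tested genes), against 17.2% of all 8718 tested genes called lower. None was higher, at an adjusted p or at an unadjusted p under 0.05 (0 and 0) or with limma-voom (0), against 13.9% of all genes. The members' median log2 fold change was -0.92, beside -0.03 over all tested genes. By at least 1 on the log2 scale, 37 members were called lower, as were 329 of all 8718 tested genes. The authors' clusters rest on the same transcripts, so a p-value between classes here tells only how alike the libraries are in a difference.

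Rps7, a small-subunit protein, had levels of 7.63 and 5.59 in satellite glia and 26.0 and 19.99 in endothelial cells of unsorted libraries 1 and 2. The classes did not overlap, and the log2 fold change of -1.66 (SE 0.13, adjusted p = 4.90e-06 by limma) was the largest among members. Rps19, another small-subunit protein, was at 14.4 and 11.9 against 43.8 and 41.9 (-1.64). Rps6, the small-subunit protein phosphorylated downstream of mTOR, was at 7.52 and 5.89 against 22.6 and 22.2 (-1.61). These members were near 3 times as abundant per UMI in endothelial cells in both libraries (glia at 0.287, 0.307 and 0.299 of the endothelial mean).

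The stalk proteins, which form the flexible arm of the large subunit that recruits translation factors, differed less. Rplp0 was at 14.9 and 8.52 in satellite glia and 23.6 and 14.02 in endothelial cells (log2 fold change -0.64), Rplp1 at -0.85 and Rplp2 at -0.60. Rplp0 shows how far the libraries can lie apart: the satellite glia of unsorted library 1 were above the endothelial cells of unsorted library 2, although the direction within each library was the same. Rpl41, the shortest member, was at -0.53 and Rpsa, a small-subunit protein also known as the laminin receptor, at -0.51.

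The 6 tested members that were not called were all among the relatives: Rpl6l (-0.37, adjusted p = 0.0769 by limma), Rpl22l1 (-0.31, 0.132), Rpl36al (-0.31, 0.177), Rps27l (-0.16, 0.471), Rpl7l1 (0.08, 0.704) and Rps19bp1 (0.20, 0.28). Their groups are small, and a p above the threshold does not show that the classes are alike. Rpl6l, a processed pseudogene in GENCODE vM21, was at 0.442 and 0.252 in satellite glia and at 1.06 and 0.456 in endothelial cells. At such low levels the log2(level + 1) scale understates a fold. Rpl3l, a striated muscle form of Rpl3, and Rpl39l, a testis form of Rpl39, stayed at or under 0.0653 in every class and library listed and were not tested.

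Other translation genes were read from lists. Of 17 elongation factors and related messages, listed for reported oligopyrimidine starts, 13 were lower in satellite glia (76.5%, beside 17.2% of all genes). None was higher, and the median was -0.67. The start search matched 11 of them, with the tract at the start in 1 (9.09%, beside 3.01% of all genes). It lay within 10 bases in 4 (36.4%, beside 34.4%). Among those lower were the elongation factor Eef1a1 (17.5 ± 5.3 against 38.8 ± 8.4, SD, n = 2, with a log2 fold change of -1.12) and Tpt1, the translationally controlled tumour protein (-0.72). Ribosomal genes that the symbol rule misses were lower too: Fau, whose product yields Rps30 (-0.91), and Gnb2l1, which encodes the small-subunit scaffold Rack1 (-1.03). Of 19 ribosome assembly factors 3 were lower (15.8%, near the 17.2% of all genes), the nucleolar proteins Nop58 (-0.90), Ncl (-0.61) and Gar1 (-0.41). The other 16 were not called. Of 71 proteins of the mitochondrial ribosome, which is built separately, 6 were higher in satellite glia (8.45%), led by Mrps36 (0.85). In this list 1 was lower (1.41%), and the median was 0.03. Both shares were below those over all genes (13.9% higher, 17.2% lower).

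**Figure D2:**
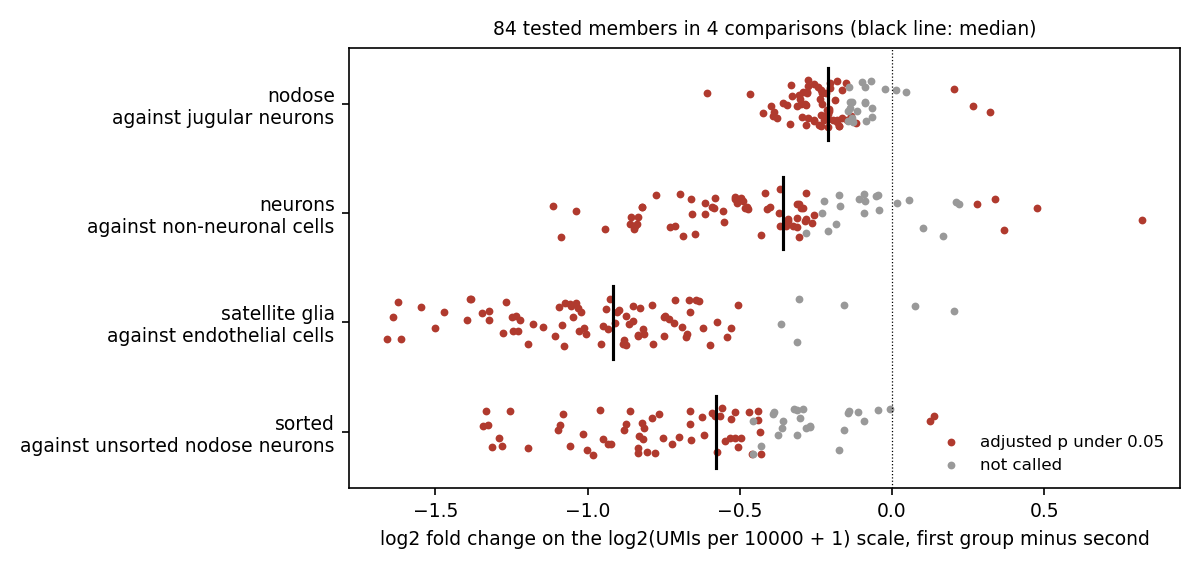
Log2 fold changes of the 84 tested members in 4 comparisons, on the log2(UMIs per 10000 + 1) scale, first named group minus second. Each point is a gene, red where the adjusted p was under 0.05, and black lines mark medians of -0.21, -0.36, -0.92 and -0.58 from top to bottom.

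Neurons against non-neuronal cells came next, with nodose and jugular neurons pooled, and satellite glia and endothelial cells pooled, in each unsorted library. Members were mostly lower in neurons: 59 of 84 were called lower, where 25.8% of all 9807 tested genes were, and 5 were called higher, where 40.6% of all genes were. The members' median was -0.36, beside 0.07 over all genes. The non-neuronal side mixes a class with a low and a class with a high summed share, and nodose neurons lay above satellite glia in both libraries (9.64% against 8.73%, 9.02% against 7.72%). That side held 17 endothelial cells and 20 satellite glia in unsorted library 1, and 34 and 27 in unsorted library 2. Median UMIs were 69125.5 and 34642 in nodose and 51731 and 31344.5 in jugular neurons. In the non-neuronal classes they were 7613 to 12026, and the part of depth was not tested. With the median of all genes set equal in every profile, 62 members were lower and 3 higher, and all-gene calls moved from 3981 higher and 2534 lower to 3301 higher and 3186 lower.

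Rpl22 and its paralog Rpl22l1 moved in opposite directions. Rpl22, a large-subunit protein (chromosome 4, 152325742 to 152334071, plus strand, as in GENCODE vM21 on GRCm38, like the gene positions that follow), was at 2.52 ± 0.32 in neurons against 6.62 ± 0.26 (SD, n = 2), a log2 fold change of -1.11 (SE 0.11, limma's adjusted p = 4.36e-05). Rpl22l1 (chromosome 3, 28805436 to 28807424, plus strand) was at 10.6 ± 0.094 in neurons against 5.56 ± 0.0047 (SD, n = 2), a log2 fold change of 0.82 (SE 0.11, limma's adjusted p = 1.97e-04). These were the lowest and the highest fold changes of all tested members. The paralogs share sequence, and the sources used here do not say how reads that match both were counted.

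The ratio of Rpl22l1 to Rpl22 ordered the classes. It was 0.688 and 0.718 in endothelial cells and 1.02 and 1.32 in satellite glia of unsorted libraries 1 and 2. In jugular neurons it was 2.68, 3.31, 2.65 and 2.43 in unsorted 1, unsorted 2, sorted 1 and sorted 2, and in nodose neurons 4.11, 4.96, 5.07 and 4.34. Endothelial cells, satellite glia, jugular and nodose neurons did not overlap with each other over their libraries. Sympathetic neurons, at 3.94 and 6.36, overlapped with nodose neurons. Although both transcripts were lower in sorted neurons, the ratio in sorted neurons stayed close to that of unsorted ones.

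Among the nodose types counted in both unsorted libraries the ratio was lowest in NG1, at 2.27 and 2.24 in unsorted libraries 1 and 2, and highest in NG13, at 6.05 and 6.36. NG3, counted in unsorted library 2 alone, was at 2.20. Among jugular types JG4 stood highest, at 4.16 and 4.55, and JG1 low at 1.96 and 1.73. NG1 neurons thus had a ratio below that of JG4 neurons in both libraries.

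**Figure D3:**
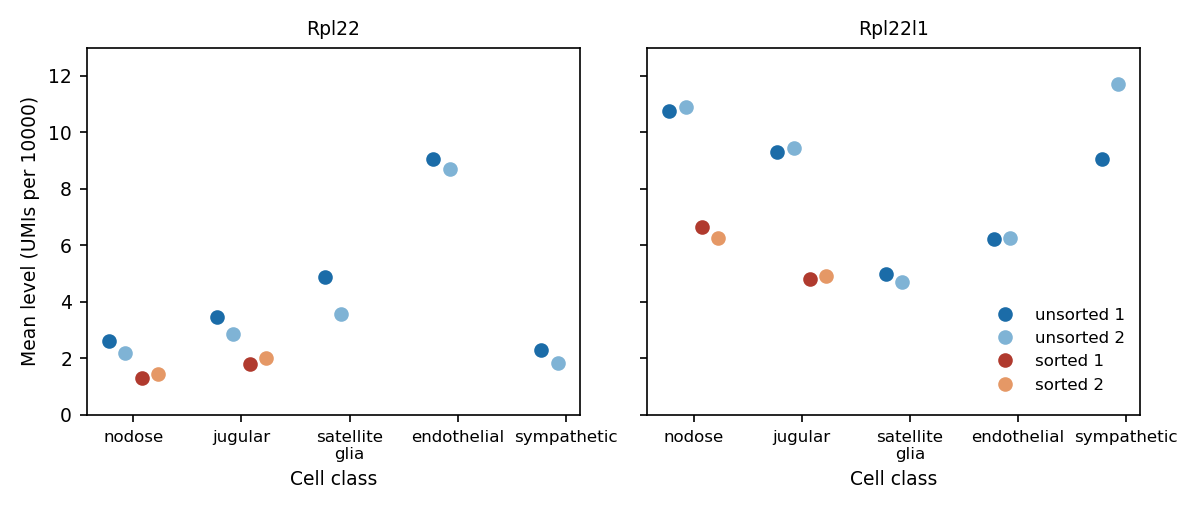
Mean level (UMIs per 10000) of Rpl22 and of its paralog Rpl22l1 by cell class, 1 dot per library. Rpl22 is highest in endothelial cells, near 9, while Rpl22l1 is near 11 in unsorted nodose neurons and between 4 and 7 in satellite glia and endothelial cells.

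After Rpl22, the members with the lowest values in neurons were Rplp0 (-1.09, the stalk base) and the large-subunit proteins Rpl18 (-1.04), Rpl7 (-0.94) and Rpl30 (-0.86). Rpl30 was at 7.29 ± 0.14 in neurons against 14.04 ± 0.42 (SD, n = 2). Beside Rpl22l1, the members higher in neurons were Rpl3 (0.48), which helps form the peptidyl transferase centre, Rpl36al (0.37), a retrogene relative of Rpl36a, Rpl14 (0.34) and Rps26 (0.28). Rpl3 was at 19.6 and 11.9 in nodose neurons of unsorted libraries 1 and 2, at 10.8 and 5.99 in satellite glia and at 17.4 and 10.6 in endothelial cells, so the libraries differed more than some of the classes. Rps26 was at 5.51 and 7.42 in nodose and 7.17 and 9.73 in jugular neurons. It was at 3.95 and 3.74 in satellite glia and 5.65 and 7.88 in endothelial cells, so nodose neurons lay below endothelial cells in both libraries.

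The lists around the ribosome are to be read beside the 40.6% of all tested genes called higher and the 25.8% called lower in this comparison. Of 17 elongation factors and related messages 6 were higher and 6 lower in neurons (35.3% each), with a median of 0.01. Eef1a2, the elongation factor form of neurons and muscle, was at 6.22 ± 1.7 against 0.252 ± 0.035 (2.51), and Eif4a2, an initiation helicase, was higher by 1.56. Eef1d, part of the factor that recharges Eef1a with GTP, was lower (-0.96). Among 13 genes of growth control 4 were higher (30.8%, below the share over all genes), with Larp1 at 1.86 ± 0.13 against 0.343 ± 0.17 (1.10), Rheb at 0.47 and Mtor at 0.30, and 1 was lower. Of 20 assembly factors 6 were lower (30%, near the share over all genes), led by the nucleolar proteins Ncl (-0.88), Nop58 (-0.80) and Nop56 (-0.57), and 2 were higher. Of 74 mitochondrial ribosomal proteins 19 were higher (25.7%), such as Mrps15 (0.59), and 7 lower (9.46%), both below the shares over all genes.

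Nodose neurons, which arise from epibranchial placodes, were then compared with crest-derived jugular neurons inside each of the 4 libraries. Members were lower in nodose neurons by a small amount: 61 of 84 were called lower, beside 19.1% of all 8833 tested genes, and 3 were called higher, beside 25.2%. The median was -0.21, beside 0.01 over all genes, and no member reached 1 in either direction. Of the tested members 73 were lower in every library, as were 24.7% of all tested genes, and 3 were higher in every library, as were 31.8%. Without the library in the model 0 members were called lower and 0 higher, beside 765 and 1200 of all 8833 genes. Without unsorted library 2, 37 were lower, beside 1347 of all 8910 genes. In cells with a mitochondrial share under 10%, 28 were lower, beside 16.5% of all genes. The members' median in those cells was -0.14, beside 0.01 over all genes.

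Rpl28, of the large subunit (chromosome 7, 4792874 to 4795066, plus strand), was furthest from equal. In unsorted 1, unsorted 2, sorted 1 and sorted 2 it was at 8.03, 6.44, 4.53 and 5.04 in nodose neurons and at 12.1, 10.7, 7.89 and 7.88 in jugular neurons. Jugular neurons were higher in each library, although the jugular values of the sorted libraries fall below the nodose value of unsorted library 1, and the log2 fold change was -0.61 (SE 0.05, adjusted p = 2.08e-05 by limma). Rpl34 (-0.46) and Rpl36a (-0.39) of the large subunit, Rplp1 of the stalk (-0.43) and Rps9 of the small subunit (-0.40) followed.

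Of the 3 members higher in nodose neurons, Rps28, a short protein at the exit of the messenger channel, was at 5.99, 8.76, 2.19 and 2.62 in nodose and at 4.58, 6.68, 1.43 and 2.096 in jugular neurons (0.32, SE 0.05, adjusted p = 5.75e-04 by limma). Rpl22l1 was higher by 0.27 and Rps27l, a p53-inducible relative of Rps27, by 0.20. Of their parent genes, Rpl22 was lower (-0.29) and Rps27 was not called at -0.13 (adjusted p = 0.0847 by limma). Rpl41 (0.04) and Rpl36 (0.01) were the other members above 0, and neither was called.

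Glial transcripts differed between these classes as well. The 9 satellite glial markers summed to 32.6, 31.5, 7.22 and 5.94 in nodose neurons and to 15.2, 13.6, 5.60 and 2.40 in jugular neurons, and their part in the members' difference was not tested. The median mitochondrial share was higher in nodose neurons in every library. In unsorted 1, unsorted 2, sorted 1 and sorted 2 it was 7.91%, 7.60%, 6.82% and 8.34% in nodose neurons. In jugular neurons it was 4.12%, 4.28%, 3.81% and 5.45%, and its part in the members' difference was not tested. The nodose to jugular difference was also tested for a change with the sort. None of 84 members passed at an adjusted p under 0.05 (0 by limma, 3 at an unadjusted p under 0.05, lowest adjusted p = 0.319, for Rpl18), where 24 of all 8833 genes did. With 2 libraries a side, this does not show that the difference stayed the same. The members' median was -0.26 in the unsorted and -0.17 in the sorted libraries alone. Their median change was 0.07, beside 0.0003 over all genes. Of 17 elongation factors and related messages 8 were lower in nodose neurons (47.1%, beside 19.1% of all genes), among them Btf3 (-0.33), Eif3e (-0.26) and Eef1d (-0.23), and none was higher. Of 20 assembly factors 6 were lower (30%, beside 19.1% of all genes) and 1 higher (5%, beside 25.2%). Of 75 mitochondrial ribosomal proteins 9 were lower and 4 higher (12% and 5.33%, both below the shares over all genes).

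Within the nodose ganglion the types differed in their summed share. Over the 12 nodose types with at least 5 cells in both unsorted libraries, the order of the types had a Spearman rho of 0.61 between the libraries, as a description of points that share a library each. NG12 was lowest, at 7.43% and 7.61% in unsorted libraries 1 and 2, and NG16 high at 10.6% and 10.1%. NG4, counted in unsorted library 2 alone with 14 cells, was at 13.4%, and NG2, also in that library alone, at 6.14%. Among jugular types JG6 was highest at 14.7% and 12.8%.

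Of 84 members 58 had their lowest type mean in NG12, and 56 had their highest in NG7 or NG16. The same shares over all genes were not computed. NG12 was already lowest and NG16 high in the members' sum, so these counts in part restate that sum. Rps12, a small-subunit protein, varied most over types, from 5.27 and 6.02 in NG12 to 12.9 and 12.2 in NG7. Rpl4, the longest member, ran from 5.55 and 3.15 in NG12 to 11.3 and 7.77 in NG7. Rps27l went the other way, with its highest values in NG12 (3.26 and 4.39) and its lowest in NG1 (1.63 and 1.94). NG12 was thus low for most members and high for this relative of Rps27.

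Sorted against unsorted nodose neurons gave a further shift, with 2 libraries a side. Of 84 members 58 were called lower in the sorted libraries, beside 10.7% of all 8883 tested genes, and 2 were called higher, beside 16.0%. The median was -0.58, beside 0.01 over all genes. By at least 1, 14 members were called lower, as were 24 of all 8883 tested genes. In 72 members both sorted libraries lay below both unsorted ones, and in 2 both lay above. Over all tested genes 29.6% lay below and 36.1% above in this way. Without sorted library 1, and likewise without sorted library 2, no member was called and all-gene calls lower fell to 34 and 33, while the median stayed at -0.55 and -0.61. Sorting, the genotype and the separate library preparation cannot be told apart here. Scaled without the members and the mitochondrial transcripts, all-gene calls went from 1424 higher and 952 lower to 1176 higher and 1196 lower, with 64 members lower.

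The 5 lowest members encode short proteins, of 51 to 97 residues. Rps27 (chromosome 3, 90212522 to 90213651, minus strand), a zinc-binding small-subunit protein, was at 10.4 and 14.9 in unsorted and 3.87 and 4.80 in sorted libraries (-1.34 on the log2 scale, SE 0.18, limma's adjusted p = 3.02e-04). Rpl39, which lines the exit tunnel of the large subunit, was at 9.76 and 13.1 against 3.59 and 4.21 (-1.33). Rps29 was at 13.4 and 21.2 against 5.60 and 6.68 (-1.33), Rps21 at 8.21 and 11.5 against 2.78 and 3.93 (-1.31), and Rpl37 at 16.1 and 21.6 against 6.44 and 7.69 (-1.29). In each of the 5 the sorted values lay under 0.4 of the unsorted mean (ratios of 0.342, 0.341, 0.355, 0.340 and 0.375). Length did not order the members strictly: Rpl41, the shortest at 25 residues, was at -1.01, and Rps27l, with 84 residues like Rps27, at -0.27.

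Members with long proteins were among the 24 not called. Rpl3 was at 19.6 and 11.9 in unsorted and 14.7 and 13.5 in sorted libraries (-0.11, adjusted p = 0.709 by limma). Rpl4 was at -0.04, Rplp0 at -0.16 and Rpl5 at -0.14, and Rpl18, of middle length, at -0.01. The 2 members called higher are not ribosomal subunits: Rpl7l1 went from 0.236 ± 0.017 to 0.361 ± 0.026 (SD, n = 2, log2 fold change 0.14) and Rps19bp1 from 0.329 ± 0.017 to 0.448 ± 0.0076 (0.12). Both calls rest on very low levels and were lost without either sorted library.

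Coding length in GENCODE vM21 was set against the fold change for the 83 members that had both. In sorted against unsorted nodose neurons the medians were -1.33 for the 3 members of at most 60 residues, -1.19 for the 8 above 60 and up to 100, -0.81 for the 30 above 100 and up to 150, -0.48 for the 30 above 150 and up to 250, and -0.37 for the 12 above 250. The first bins hold few genes. Spearman's rho was 0.69 over the members and -0.18 over the 8655 other genes with a length, as descriptions over genes that share their libraries. Other genes of the same bins had medians between -0.08 and 0.06.

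Members also differed by coding length between libraries that carry the same label. These libraries are numbered in accession order, so the sign of such a slope depends on which is subtracted, and only its size and its likeness over classes can be read. From unsorted library 1 to unsorted library 2, the members of at most 60 residues had a median of 0.39 in nodose neurons and those above 250 residues one of -0.30, with a rho of -0.74. In jugular neurons rho was -0.74, in satellite glia -0.70 and in endothelial cells -0.72, and between the sorted libraries -0.55 in nodose and -0.50 in jugular neurons. Genes outside the members did not share this relation. Between the unsorted libraries their rho was 0.15, 0.11, 0.11 and -0.0067 in nodose neurons, jugular neurons, satellite glia and endothelial cells. Between the sorted libraries it was 0.44 in nodose and 0.38 in jugular neurons. Rps29, for example, was at 13.4 and 21.2 in nodose neurons and at 29.1 and 43.3 in endothelial cells of unsorted libraries 1 and 2, while Rpl10 was at 19.2 and 10.6 and at 20.8 and 12.9. In all 4 classes short members were thus higher, relative to long ones, in unsorted library 2. The median UMI count of nodose neurons was 69125.5 in unsorted library 1 and 34642 in unsorted library 2, and the part of depth was not tested. For the classes compared inside libraries rho was smaller, at -0.36 for nodose against jugular, 0.06 for neurons against non-neuronal cells and -0.10 for satellite glia against endothelial cells.

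**Figure D4:**
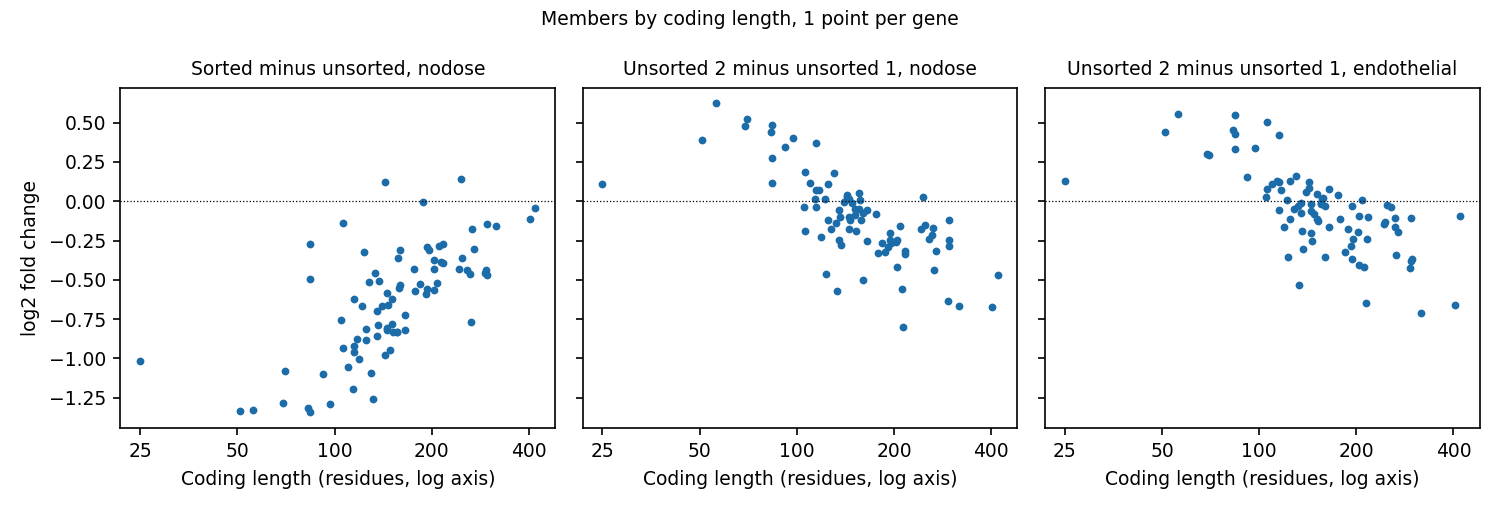
Log2 fold change of each member against its coding length in residues (log axis), for sorted minus unsorted nodose neurons and for unsorted library 2 minus unsorted library 1 in nodose neurons and in endothelial cells. Short members tend to lie low in the left plot (rho 0.69) and high in the others (rho -0.74 and -0.72), where the order of subtraction is arbitrary.

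Cells of the sorted libraries fell into 2 ranges of the summed share. In sorted library 1, 104 of 299 nodose neurons (34.8%, exact 95% interval 29.4 to 40.5) had under 4% of their UMIs in members, and in sorted library 2, 90 of 247 (36.4%, 30.4 to 42.8). In unsorted libraries 1 and 2 such cells were 3 of 188 (1.60%, 0.330 to 4.59) and 3 of 725 (0.414%, 0.0854 to 1.20). Few cells lay near that line: 13 and 19 sorted cells had between 3% and 5%. The line was set after these values were seen, and the intervals cover counting error only.

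Jugular neurons showed the same ranges, with 8 of 25 and 21 of 50 cells under 4% in the sorted libraries and 1 of 34 and 0 of 136 in the unsorted ones. In each sorted library 17 of 18 nodose types held such cells. They were 13 of 20 and 7 of 11 NG18 neurons and 8 of 15 and 8 of 10 NG17 neurons, but 1 of 9 and 0 of 5 NG12 neurons. Of the 11 types with enough cells in every library, NG12 had the least difference in mean between sorted and unsorted libraries. Its means were 7.43% and 7.61% in the unsorted and 6.15% and 7.72% in the sorted libraries, the latter from 9 and 5 cells. In the other 10 of 11 types with enough cells in every library, both sorted means lay below both unsorted means.

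The cells under 4% also had more mitochondrial transcripts and fewer UMIs. Their median mitochondrial share was 13.2% and 13.3% in sorted libraries 1 and 2, beside 5.28% and 6.43% in the other nodose cells there. Their median UMI counts were 26359 and 38470.5, beside 58753 and 63469. Over nodose cells the summed share and the mitochondrial share had a Spearman rho of -0.72 and -0.78 in the sorted libraries and of -0.22 and -0.26 in the unsorted ones, as a description over cells whose shares are parts of a single total. The part of RNA quality in the sorted shift was not tested.

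**Figure D5:**
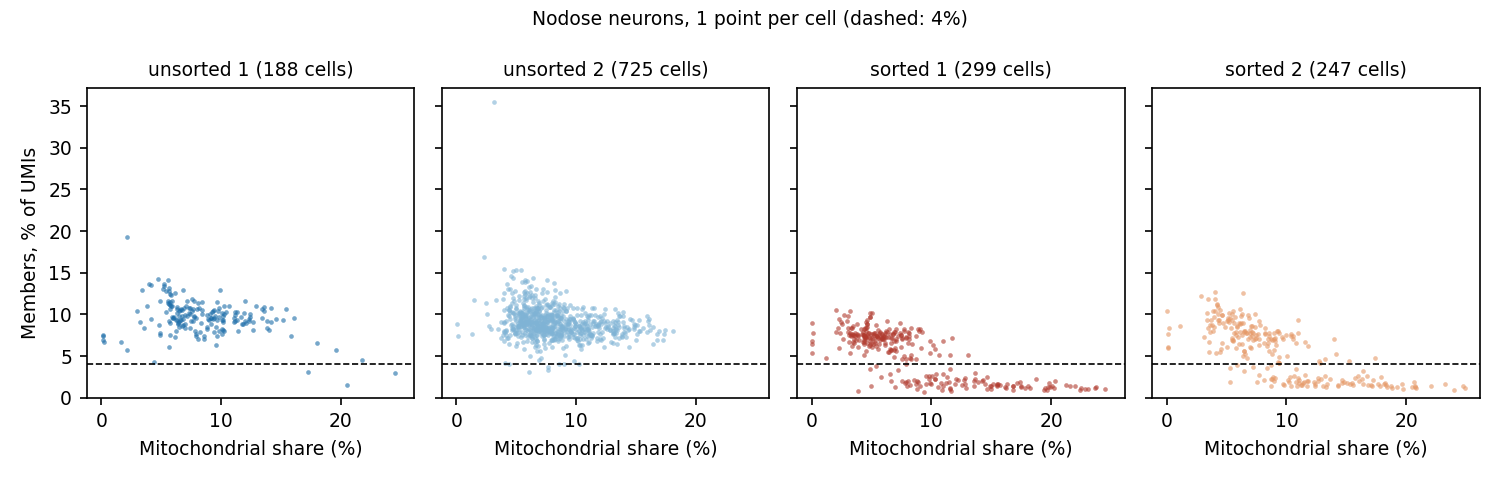
Each nodose neuron by its mitochondrial share (%) and the share of its UMIs in the 86 members (%), by library. In the sorted libraries a band of cells lies under the dashed line at 4%, mostly at a mitochondrial share of 8% or more, and the unsorted libraries hold 3 such cells each.

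Leaving out these cells made the sorted shift smaller. Among cells of at least 4%, the mean summed share was 7.27% and 7.84% in the sorted and 9.75% and 9.04% in the unsorted libraries, 23 members were called lower (9.06% of all genes), and the median was -0.23. This choice uses the members' own values, so it describes the remaining cells and tests nothing. With cells under a mitochondrial share of 10% instead, 34 members were lower (9.13% of all genes) with a median of -0.34. In the cells of at least 4% the members' relation to length was as close as in all cells, with a rho of 0.72. The medians ran from -0.90 at no more than 60 residues to -0.0039 above 250. Over the other genes rho was -0.48 in these cells, beside -0.18 in all cells. Inside the sorted libraries, cells under 4% were picked by the members' sum, which sets the direction in advance. Their values were below those of the other cells for 84 of 84 members in both libraries (medians -1.60 and -1.61), as for 37.0% of all 9448 genes compared, and the relation to length was weak (rho 0.09 and 0.28).

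Markers of other cell types moved with the sort as well, and their part in the members' shift was not tested. The summed level of the 9 satellite glial markers in nodose neurons was 32.6 and 31.5 in unsorted and 7.22 and 5.94 in sorted libraries, with 2 of the 9 at 0 in sorted library 2, and Apoe, the most abundant, went from 20.2 and 18.3 to 1.94 and 0.683. The 4 fibroblast markers went from 2.95 and 0.406 to 0.0521 and 0.0557, and the 4 red blood cell markers from 0.307 and 10.7 to 0.0591 and 0.0496. The 4 jugular markers went up in nodose neurons, from 1.09 and 1.14 to 2.86 and 3.4. Outside the members, Fau (-0.68) was lower in sorted neurons, as were 3 of 17 elongation factors and related messages, with Tpt1 at -0.60, and none was higher (17.6% lower, beside 10.7% of all genes). The mitochondrial ribosome went the other way, with 42 of 75 proteins higher (56%, beside 16.0% of all genes), such as Mrps34 (0.38), 2 lower, and a median of 0.15. Ribosome assembly factors were higher in 8 of 20 (40%, beside 16.0% of all genes) and lower in none. The nucleolar protein Nop56 went from 0.326 ± 0.036 to 0.732 ± 0.033 (0.38), and Eif6, which keeps the large subunit from joining early, was at 0.35.

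Sorted jugular neurons were compared with unsorted ones in the same way, as a second class under the same sort. There 40 of 84 members were called lower, beside 2.67% of all 8696 tested genes, and none higher, beside 4.0%. The members' median was -0.68, beside 0.01 over all genes, and 18 were called lower by at least 1. The share at that size over all genes was not computed here. With equal weight for each of the 11 nodose types that had enough cells in every library, 58 members were lower, 57 of them the same genes as in all nodose cells, beside 12.4% of all genes. The other nodose types were not part of that fit.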

How the data were processed

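The authors deposited natural log values, ln(1 + UMI count per 10000), for 17289 genes and 1825 cells. With the log undone, 100% of the non-zero values lay within 0.01 of a whole UMI count. The mitochondrial share was deposited by the authors as a fraction of UMIs, and UMI count totals and clusters came from the deposited annotation. Cell Ranger 2.1.1, Seurat and mm10 are named per the submitters' processing notes. The annotation release, and how reads shared by near-identical genes were counted, stand in none of the sources used here.

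Linear values were averaged per library and class, given 10 or more cells. A gene was tested where its mean passed 0.1 in a number of profiles equal to the smaller group. The test was limma 3.58.1 (R 4.3.3, mean-variance trend, two-sided) on log2(mean + 1), with Benjamini-Hochberg adjustment over all tested genes. Such folds understate changes of low genes. The library was a block except for sorted against unsorted neurons. Called means an adjusted p under 0.05. The fits were tested on simulated data. No doublet caller was run. Intervals are Clopper-Pearson.

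Genes were named by rule: the 5 largest folds each way among called members, a list of members named in any case, and up to 3 called genes of each other list with the smallest adjusted p. Uncalled members and members over types were picked after their values were seen. Some genes that the rule names are not reported here. Members and lists were chosen with earlier results of these data known. Coding length (from GENCODE vM21, longest principal coding sequence divided by 3) stood in for the protein length that had been planned. Replicate numbers follow accession order and pair nothing.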

Additional observations from a re-analysis of the deposited data

Results flagged for a closer look

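Over the 4 libraries, 20 nodose to jugular differences were looked at for a library far from the others (the named members and the summed share). Rps19bp1, the Rps19 binding protein, was the only one among them past Dixon's critical value at 95% for 4 values. Its log2 difference was -0.198 in sorted library 1, while the other libraries lay between -0.0922 and -0.0898. The level was low throughout, at 0.668 in jugular and 0.454 in nodose neurons of sorted library 1. Chance alone flags about 1 in 20 such groups.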

How the results depend on the processing

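Under the alternatives run, no member count or named gene turned its direction. For nodose against jugular neurons, 3 members were higher and 61 lower. With no replicate block 0 and 0 were called, beside 1200 higher and 765 lower over all genes. In the sorted libraries alone 22 were lower, beside 1321 of all 9041 genes. In cells with a mitochondrial share under 10%, 28 were lower, beside 16.5% of all genes. Leaving out each library in turn gave 37 to 54 lower, beside 1347 to 1497 over all genes, and 3 higher each time. For neurons against non-neuronal cells the 5 members higher became 3 with no filter on low genes, 3 with median centring, 8 without a trend and 2 with no replicate block, and the 59 lower became 31 with no replicate block. Each unsorted library alone gave member medians of -0.31 and -0.44 there, and -0.86 and -1.01 for satellite glia against endothelial cells. A pseudocount of 0.1 moved the median of all genes in the neuronal comparison from 0.07 to 0.26. No member count for satellite glia against endothelial cells moved by over 1.5 times.

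For sorted against unsorted nodose neurons the 2 members higher became 0 with no filter, 0 without a trend, 0 in jugular neurons, and 1 each with scaling without members and mitochondrial transcripts, with median centring, without the cells of the most UMIs and with types weighted equally. Leaving out each library in turn gave 0 to 2 higher and 0 to 75 lower. The 58 lower became 34 in cells with a mitochondrial share under 10% and 23 in cells of at least 4% members, both chosen after seeing the data. With a lone sorted library, its spread is assumed to be that of the other group. Apart from the settings named, the cause of these changes was not tested. Of the values for named genes and medians under alternatives, 714 kept their call and 140 were no longer past the threshold. Satellite glia and endothelial cells numbered 51 each, which limits every value from them.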

Other observations

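Genes outside the rule also differed between the sorted nodose neurons under and over 4% of members. They were picked after their values were seen, from cells chosen on the members, so the values carry no test. Among the lowest in both sorted libraries were the actin-binding thymosins Tmsb10, at 4.21 in cells under 4% and 22.1 in the others of sorted library 1 and at 4.08 and 21.6 in sorted library 2, and Tmsb4x, at 26.5 and 114 and at 22.4 and 93.0. Uqcrh, a subunit of complex III of the respiratory chain, was low too, at 3.12 and 14.1 and at 3.05 and 12.3. Among the highest were Clu, a secreted chaperone (12.2 and 1.78, 10.0 and 2.02), the nuclear RNA Malat1 (617 and 119, 469 and 164) and Hspa5, the chaperone of the endoplasmic reticulum (7.28 and 1.35, 5.81 and 1.39). The 13 mitochondrial transcripts had medians of 1.14 and 0.91 on the log2 scale, cells under 4% minus the others, and none was lower in both libraries. Mitochondrial ribosomal proteins had medians of -0.37 and -0.28, far from the -1.60 and -1.61 of the members.

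Over all other genes, short coding sequences were lower in the cells under 4%, with medians of -0.86 and -0.73 in genes of at most 60 residues (23 genes) against 0.06 and 0.05 above 250, and a rho with length of 0.60 and 0.56 over 9210 genes. Genes are not independent replicates, and no p is given.

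The symbols with "-ps", 15 in the table, name copies of member genes, and reads cannot be told apart from the parents' with certainty. They summed to 4.22 and 2.69 per 10000 in unsorted and 1.43 and 2.05 in sorted nodose neurons, of which Rps12-ps3 gave 1.45, 1.07, 0.250 and 0.491 and Rpl23a-ps3 1.47, 0.888, 0.205 and 0.292.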
